A study of Mus musculus with 8 samples.

Results

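The nuclei described here were glutamatergic nuclei of the mouse cerebral cortex gated on 5 genes, Galnt14, Sulf1, Cwh43, Oprk1 and Dnah14, a set put forward as a type of deep intratelencephalic (IT) neuron. A member had UMIs (unique molecular identifiers, 1 per captured RNA molecule) of 500 or more genes, of which no more than 2% were mitochondrial, at least 1 UMI of Slc17a7, at most 1 of Gad1 and Gad2 together, and at least 4 of the 5 gate genes together. It also had at most 2 UMIs each of Il1rapl2 and Foxp2, and at most 2 of the glial and vascular genes Slc1a3, Mog, Inpp5d and Flt1 together. The rule found 2210 nuclei among 77185 kept nuclei and 42073 glutamatergic nuclei. The gate genes were chosen on these nuclei, so all that sets the members apart from other nuclei is given as a description, without a test.

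The study compared wild type (WT) mice with mice heterozygous for Chd8 (Chd8+/-, in short Chd8het), all of strain C57BL/6J and P25 (postnatal day 25), and 2 mice of each sex and genotype gave 1 library each. Chd8 encodes a chromatin remodelling ATPase that is among the genes most often mutated in autism. Per the labels' protocols, the medial cortex was removed, the tissue was frozen, and the mice were taken as 4 pairs of the same litter and sex. The mutant allele is not described in the sources used here, so no limit of the model beyond heterozygosity can be given. In each sex and genotype, replicate 1 was single-indexed and replicate 2 dual-indexed, which is called index type below. Listed as male 1, male 2, female 1 and female 2, the WT libraries gave 190, 289, 188 and 389 gated nuclei and the Chd8het libraries 273, 349, 224 and 308. Summed over gated nuclei, a library held 2298000 to 5670000 UMIs. No gated barcode was shared between libraries, whereas 16 to 34 kept barcodes were shared by each pair of libraries. Scrublet called 92 gated nuclei doublets, 2.11% to 6.30% per library.

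IT neurons are the glutamatergic neurons whose axons stay within the telencephalon and reach other cortical areas, the opposite hemisphere and the striatum. They occupy layers 2 to 6 and differ in gene expression by depth, with Cux2 and Rorb marking upper and middle layers. Neurons projecting outside the telencephalon, near-projecting neurons, corticothalamic neurons and layer 6b neurons share the deep layers with them, and express Bcl11b and Fezf2, Tshz2, Foxp2, and Ccn2 respectively. Of the gate genes, Galnt14 encodes an enzyme that starts O-linked GalNAc sugar chains on proteins, Sulf1 a sulfatase that trims heparan sulfate at the cell surface, Cwh43 a protein that remodels the lipid of GPI anchors, Oprk1 the kappa opioid receptor and Dnah14 an axonemal dynein heavy chain. Cdh9, given as a marker of these cells but absent from the rule, encodes a type II cadherin, a calcium-dependent adhesion protein.

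Galnt14 was the gate gene found in most members (86.2%), so its promoter is shown. The CG dinucleotides, the sites of cytosine methylation in mammals, are in capitals. The window is the 250 bases upstream of the RefSeq start, chr17:73710452-73710701 on the minus strand of GRCm38, and holds 19 CG at 66.4% GC.
Galnt14 promoter: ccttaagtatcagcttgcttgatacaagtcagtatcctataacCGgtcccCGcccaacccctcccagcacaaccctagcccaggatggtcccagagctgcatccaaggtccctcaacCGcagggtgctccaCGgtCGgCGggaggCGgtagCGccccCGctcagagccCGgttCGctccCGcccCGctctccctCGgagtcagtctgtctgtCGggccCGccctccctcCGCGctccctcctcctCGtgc
Over 32851 promoters of the same length the median was 6 CG and 52.4% GC, and 19.7% of promoters held as many CG as Galnt14. The gene spans chr17:73493228-73710453 on the minus strand. The other gate genes lie at chr1:12692277-12861192 (Sulf1, plus strand), chr5:73406075-73453435 (Cwh43, plus), chr1:5588466-5606131 (Oprk1, plus) and chr1:181576559-181815774 (Dnah14, plus, overlapping Lbr on the other strand). Cdh9 lies at chr15:16728756-16857094 on the plus strand.

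Levels are given in CPM, the gene's counts scaled to a common total of the summed nuclei and adjusted between libraries. Levels of whole clusters, given further on, were taken over the pooled nuclei of all libraries, without that adjustment. In the order male 1, male 2, female 1 and female 2, used from here on, Galnt14 was 280, 444, 258 and 408 CPM in gated WT nuclei and 289, 432, 256 and 281 CPM in gated Chd8het nuclei. The 3 highest values were all in dual-indexed libraries, and the genotypes overlapped. In the other glutamatergic nuclei the mean was 50.1 CPM, against 331 ± 81.6 CPM (SD, n = 8) in gated nuclei, and the ratio ran from 5.33 to 9.60 over libraries.

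The other gate genes were higher than in other glutamatergic nuclei in each of the 8 libraries as well, as the rule sets. Sulf1 was at 99.6 ± 8.12 CPM against 35.7 CPM, with ratios of 2.16 to 4.20. Cwh43 was at 63.6 ± 20.4 CPM against 18.2 CPM. Dnah14 was at 44.0 ± 16.04 CPM against 13.9 CPM, with WT male 1 highest at 78.7 CPM. Oprk1 was at 18.0, 9.45, 21.4 and 11.5 CPM in the 4 WT libraries and 19.5, 7.33, 28.3 and 21.9 CPM in the Chd8het libraries, against a mean of 2.18 CPM in other nuclei. The lowest Oprk1 values of both genotypes came from the dual-indexed male libraries.

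Cdh9, which the rule did not use, stood at 250, 184, 401 and 287 CPM in the WT libraries and 240, 178, 286 and 305 CPM in the Chd8het libraries. Every library was above its own other glutamatergic nuclei, whose mean was 108 CPM, by 2.04 to 3.59 times. It was not particular to the gate, since 3975 Foxp2-high nuclei, with at least 3 UMIs of Foxp2, under 4 of the gate genes and at most 2 of Il1rapl2, held 311 CPM. In 7790 Il1rapl2-high nuclei, defined the same way with the 2 genes exchanged, it was 54.9 CPM. Sulf1 and Cwh43 were also well represented in the Foxp2-high nuclei, at 47.2 and 41.0 CPM, while Galnt14 was at 13.6 CPM and Oprk1 at 1.41 CPM there.

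**Figure D1:**
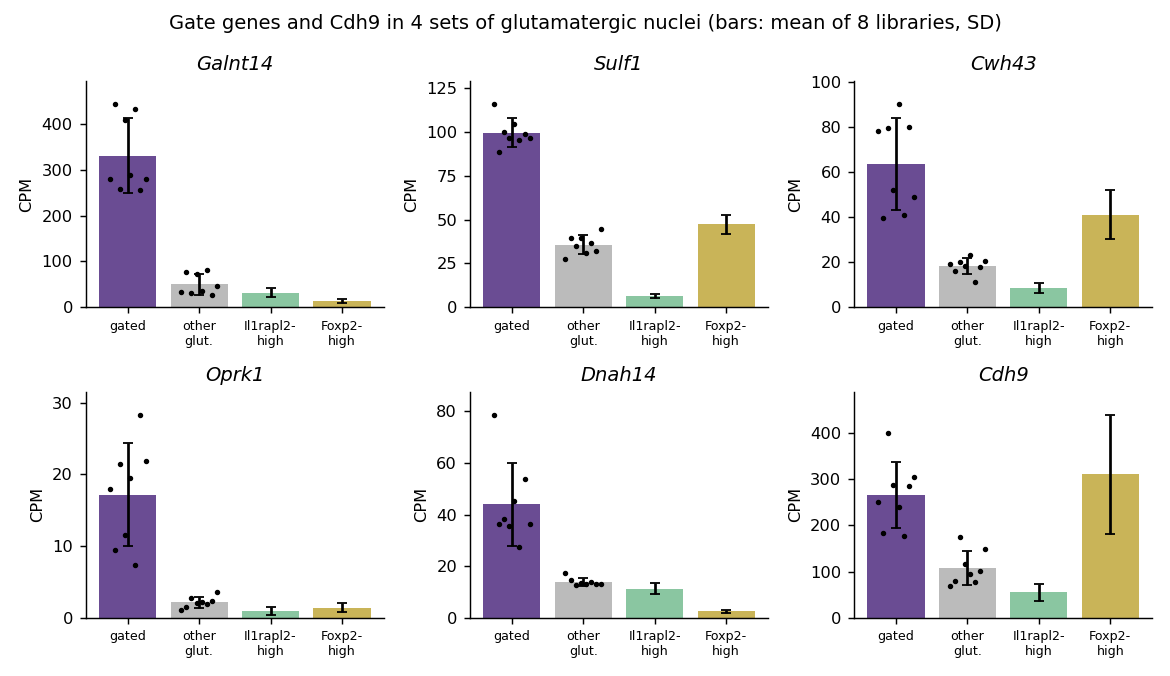
Level in CPM (y axis, linear, from 0) of the 5 gate genes and Cdh9 in gated, other glutamatergic, Il1rapl2-high and Foxp2-high nuclei. Bars are means of 8 libraries with SD, and points are the libraries for the first 2 sets. The gate genes are high in gated nuclei by construction, while Cdh9 has a mean of 311 CPM in Foxp2-high nuclei and 267 CPM in gated ones.

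A UMI of Galnt14 was found in 86.2% of gated nuclei, Sulf1 in 44.7%, Cwh43 in 40%, Dnah14 in 24.1% and Oprk1 in 13%. In the other glutamatergic nuclei the shares were 20.2%, 15.8%, 12.4%, 8.24% and 1.62%. Cdh9 was found in 55.3% of gated and 30% of other nuclei. As a measure of free RNA, 1984 kept nuclei with at least 3 UMIs of the oligodendrocyte gene Mog and no UMI of Slc17a7 were used. They had Galnt14 in 5.80%, Sulf1 in 2.97%, Cwh43 in 1.46%, Dnah14 in 3.48%, Oprk1 in 0.403% and Cdh9 in 8.17%. Leaving out nuclei with the neuronal RNA Slc17a7 may make these shares low. Median depth was 11873 UMIs in gated, 8659 in other glutamatergic and 3734 in Mog-high nuclei, so these shares also differ in depth.

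Few gated nuclei carried the whole set of gate genes. Of the 2210, 781 had UMIs of 1 gate gene, 726 of 2, 481 of 3, 187 of 4 and 35 of all 5. Galnt14 alone accounted for 623 of the 781, Sulf1 for 92, Dnah14 for 50, Cwh43 for 16 and Oprk1 for 0. Of 5212 glutamatergic nuclei with at least 4 gate gene UMIs, 1924 were left out by Il1rapl2, 931 by Foxp2 and 147 by both. Just outside the gate, 1063 nuclei had 3 gate gene UMIs, and just inside, 612 had 4. Their median depths were 10180 and 10380 UMIs, and Cdh9 was found in 37.6% and 44.1%. The gate therefore cut a continuous range of nuclei.

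Only some of the members met the label of deep IT-like neurons by the listed markers, most of which are gate genes. Clustering of the gated nuclei on 1992 variable genes gave 11 clusters, to which names were given only where at least 3 listed markers of a class were raised and at least 1 of them was among the 10 leading genes. A gene counted as raised at 5 CPM or more and at least 2-fold against the other gated nuclei after adding 5 CPM to both levels, which holds back genes of low level, and leading genes were ranked by the same ratio among those of at least 20 CPM. The deep IT marker Osr1 missed these limits in clusters 1 and 4, at 4.18 against 1.31 CPM and 6.00 against 1.19 CPM. Cluster 1, with 428 nuclei (19.4%), had raised Cdh9, Oprk1 and Cwh43, all 3 among its 10 leading genes, and so met the condition for the name deep IT-like. Oprk1 and Cwh43 are gate genes, and outside the rule only Cdh9 was raised. Without the gate genes cluster 1 would not meet the condition. The other gate genes of the deep IT list were not raised in it, with Galnt14 at 351 against 341 CPM, Sulf1 at 100.2 against 97.2 CPM and Dnah14 at 41.5 against 40.6 CPM. Of the layer 5 IT markers 2 of 4 were raised as well, Deptor at 36.2 against 13.2 CPM and Ptpru at 86.95 against 37.99 CPM. Of the general IT markers 3 of 5 were raised (Slc30a3, Lmo4 and Ptprk), but they were not among its leading genes. Its Cdh9 level was 683 CPM against 158 CPM in the other gated nuclei, and 64.7% of its nuclei had 3 or more gate genes. Cluster 4, with 429 nuclei (19.4%), had Sulf1, Dnah14 and Cdh9 raised at 187, 85.5 and 566 CPM, and was led by Pld5, Bmpr1b and Ptprt. In it, 55.2% of nuclei had 3 or more gate genes, its 10 leading genes held no marker from the lists, and it stayed unnamed. The layer 5 IT markers Il1rapl2 (92.5 against 35.5 CPM) and Ptpru (115.5 against 36.3 CPM) were raised in it too. Of the 7 deep IT markers 5 are gate genes, so the name depends on genes that the rule used.

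Other clusters carried marker genes of other classes. Cluster 3, the largest with 472 nuclei (21.4%), was led by Erg, Parm1, Stac and Tcerg1l and had 3 of 5 listed layer 5 extratelencephalic markers raised, with Bcl11b at 306 CPM against 72.9 CPM, and Pou3f1, at 12.8 against 4.21 CPM, just missed the ratio. It stayed unnamed because its 10 leading genes held none of them, and 69.9% of its nuclei had a single gate gene, mostly Galnt14. Cluster 2 (275 nuclei) was led by Cux2, Calb1 and Glra3 with 5 of 6 layer 2/3 IT and 2 of 5 layer 4/5 IT markers raised. Cluster 5 (223 nuclei) had all 5 layer 6b markers raised, Ccn2 at 109 CPM against 1.76 CPM, and 10.8% of it was called doublets. In cluster 5, 3 of 6 corticothalamic, 2 of 5 oligodendrocyte and 2 of 4 oligodendrocyte precursor markers were raised too, Pdgfra at 13.7 against 1.39 CPM. Cluster 7 (69 nuclei) had 4 of 6 corticothalamic and 2 of 7 deep IT markers raised, with Rprm missing the ratio at 6.92 against 1.63 CPM. Cluster 10 (57 nuclei) had 4 of 5 near-projecting and 3 of 6 corticothalamic markers raised, with Sla2 missing the ratio at 6.24 against 1.01 CPM, and cluster 11 (31 nuclei) had all 5 markers of the Car3 type of the claustrum region and 3 of 7 deep IT markers raised. In cluster 11, Oprk1 was found in 74.2% of nuclei, against 36.0% in cluster 1 and 20% in cluster 4.

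Clusters 6, 8 and 9 were uneven over libraries. Cluster 6 (62 nuclei) had Adarb2 and Erbb4 among its leading genes, and 16.1% of it was called doublets. It had 6 of 6 caudal ganglionic eminence (CGE) and 5 of 6 medial ganglionic eminence (MGE) interneuron markers raised, with Gad1 and Gad2 counted in both lists. In cluster 6, 2 of 5 Car3 type, 2 of 6 striatal projection and 2 of 6 vascular markers were raised too, Dcn at 34.7 against 0.521 CPM. Its Adarb2 level of 4330 CPM was pooled over libraries, which contributed unevenly, as given further on. Of its nuclei, 31 came from Chd8het male 2, which is 8.88% of that library's gated nuclei against 0.346% to 2.68% in the other 7 libraries. Cluster 8 (106 nuclei, led by Sncaip, Htr2c and Unc13c) and cluster 9 (58 nuclei, led by Rmst) stayed unnamed, and 88.7% and 93.1% of their nuclei came from dual-indexed libraries. Of cluster 8, 30 and 38 nuclei came from WT male 2 and Chd8het male 2. In WT females it made up 3.19% of gated nuclei with single and 3.08% with dual indexes, and in Chd8het females 1.79% and 4.55%. In cluster 9, 4 of 5 layer 4/5 IT markers were raised (not Rorb, at 26.2 against 77.5 CPM), none of them among the leading genes, and 2 of 5 near-projecting markers (Tshz2 and Vwc2l), while Trhr, at 5.69 against 2.59 CPM, missed the ratio. Because of this mixture the members are called Galnt14 and Sulf1 gated nuclei here and are not given a cell type name.

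**Figure D2:**
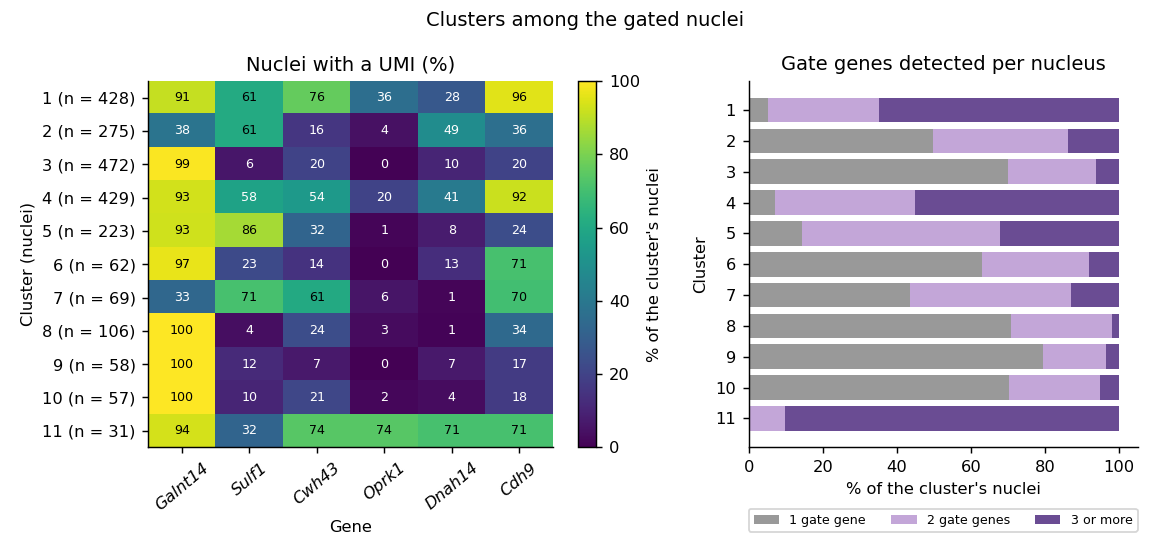
Left, percent of the nuclei of each of 11 clusters with a UMI of each gate gene or Cdh9 (colour scale 0 to 100%). Right, percent of each cluster's nuclei with 1, 2 or at least 3 gate genes. Clusters 1, 4 and 11 combine several gate genes with Cdh9, whereas most nuclei of clusters 3, 6, 8, 9 and 10 carry 1 gate gene.

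Among genes outside the rule, 6006 had a mean of at least 20 CPM in gated nuclei, a filter that leaves out genes depleted below that level, so the counts of higher and lower genes are not on the same footing. Of these, 708 (11.8%) were higher and 768 (12.8%) lower in gated nuclei in all 8 libraries, 15 (0.25%) were over 2-fold higher in all 8 and 5 (0.0833%) over 2-fold lower. Gm49878 and Gm49876, both antisense transcripts inside Galnt14, were highest by ratio at 31.7 and 35.3 CPM against 5.55 and 8.32 CPM. As the use of strand in counting is not stated, their reads cannot be told apart from those of Galnt14, and the same holds for Gm49127, inside Cdh9.

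Erg, a transcription factor of the ETS family, was at 38.4 ± 15.7 CPM against 8.997 CPM, and Svil, which encodes the actin-binding supervillin, at 50.01 ± 22.8 CPM against 13.1 CPM. Erg was found mainly in nuclei with a single gate gene, at 85.4 CPM, against 11.9 CPM in nuclei with at least 2 gate genes. Svil was mostly a gene of cluster 5, at 527 CPM there and 4.79 CPM in the other gated nuclei. Rxfp1, the receptor for relaxin, was at 72.0 ± 11.8 CPM against 22.7 CPM, and Qrfpr, a neuropeptide receptor, at 34.2 ± 7.72 CPM against 12.99 CPM. Chrm2, the M2 muscarinic acetylcholine receptor, was at 150 ± 30.9 CPM against 72.5 CPM. Unlike Erg, Rxfp1 and Chrm2 were higher with at least 2 gate genes (85.9 and 183 CPM) than with 1 (49.8 and 93.3 CPM). Stac, Fam20a, Parm1, Pcsk5, Fbxl7 and Tmem163 completed the protein-coding genes with the steadiest excess, together with Gng7, Adam18, Mctp2 and Bcl11b.

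Rorb, the nuclear receptor that marks layer 4, was the most depleted named transcription factor. It stood at 81.0 ± 29.4 CPM in gated nuclei against 437 CPM in other glutamatergic nuclei, and its ratio ran from 0.123 to 0.325. It was similarly low in nuclei with 1 gate gene, at 83.6 ± 28.9 CPM. Kcnh5, a voltage-gated potassium channel, was at 98.9 CPM against 308 CPM, Thsd7a at 38.8 against 118 CPM, and Ptprm, a receptor tyrosine phosphatase, at 45.4 against 140 CPM. Syt6, a gene of corticothalamic neurons, was at 6.43 CPM against 20.9 CPM, and at 124 CPM in the Foxp2-high nuclei, which the rule excludes.

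**Figure D3:**
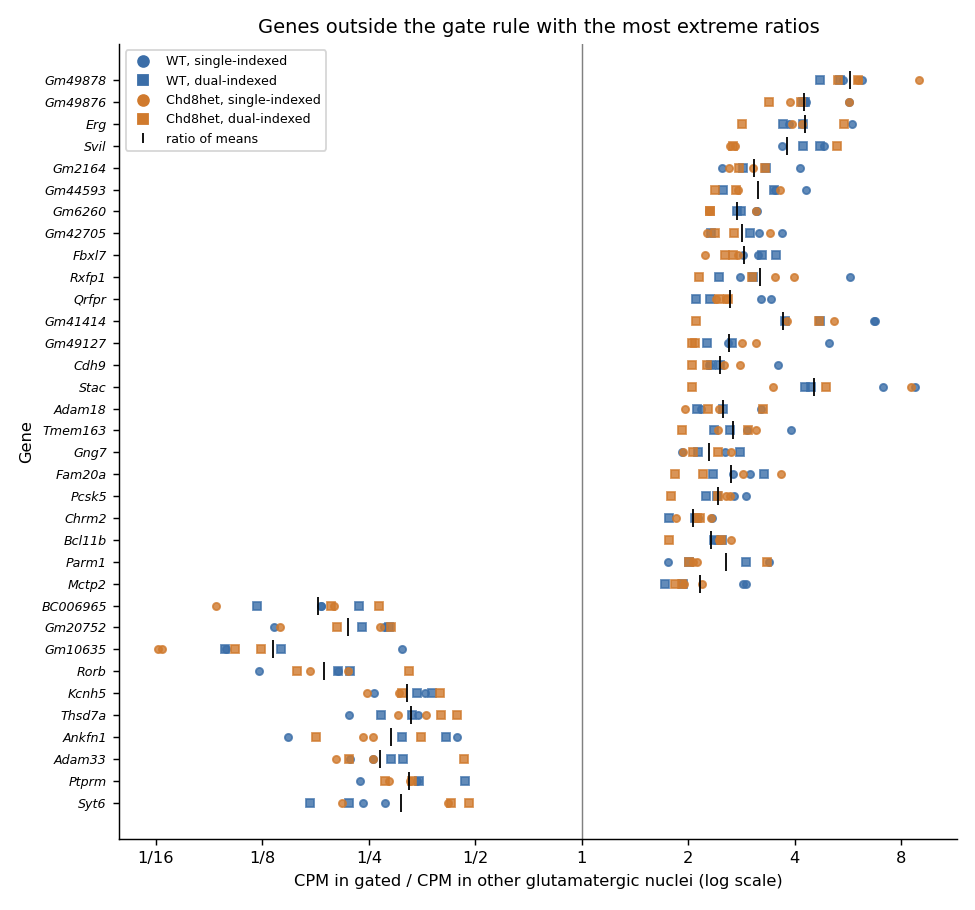
Ratio of CPM in gated over other glutamatergic nuclei (x axis, log scale) for the 24 genes outside the rule with the highest lowest-library ratio and the 10 with the lowest highest-library ratio. Points are libraries, coloured by genotype and shaped by index type, and the bar is the ratio of means. No point of these genes crosses 1, and Rorb lies between 0.123 and 0.325.

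The gene lists were read in the same way, by how many members of at least 20 CPM were higher or lower in all 8 libraries, beside the 11.8% and 12.8% of all genes. Of 19 layer identity transcription factors, 5 were higher (Bcl11b, Ldb2, Sox5, Nfib and Nfia) and 8 lower (Rorb, Cux2, Cux1, Nr2f1, Mef2c, Foxp1, Lmo4 and Tle4). Bcl11b was at 140 ± 23.9 CPM against 60.7 CPM, yet higher with 1 gate gene (193 CPM) than with more (113 CPM). Cux2 was at 62.8 CPM against 161 CPM.

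The relatives of the gate genes lay on both sides. Of 13 O-GalNAc glycosylation enzymes other than Galnt14, 7 were higher in all 8 libraries and 3 lower, and Galnt10 was at 32.4 against 17.5 CPM and Galntl6, by contrast, at 717 against 922 CPM. Of 18 heparan sulfate genes other than Sulf1, 4 were higher and 7 lower. Sulf2, the related sulfatase, was at 65.2 against 51.9 CPM, and the proteoglycan core protein gene Gpc6 at 558 against 930 CPM. Of 5 cilia genes 1 was higher, Dnah9 at 59.4 against 27.2 CPM, and 1 lower, and of 7 GPI anchor genes 1 was higher and 1 lower. Of 8 opioid and other neuropeptide receptors at this level, Rxfp1 and Npr3 were higher, and Crhr1 and Oprm1 lower, in all 8 libraries. Oprm1, the mu opioid receptor, was at 161 ± 33.4 CPM against 192 CPM. The opioid peptide genes did not reach 20 CPM, and Pdyn, the precursor of the kappa ligand dynorphin, was at 1.53 CPM.

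Cadherins, glutamate receptor genes and axon guidance genes held more members on the high side, and potassium and HCN channel genes more on the low side. Of 13 cadherins, 6 were higher in all 8 libraries (Cdh9, Cdh13, Cdh4, Cdh18, Cdh20 and Cdh22) and Cdh12 was lower. Cdh13, a GPI-anchored cadherin, was at 413 ± 109 CPM against 221 CPM. Of 25 ionotropic glutamate receptor genes, 12 were higher and 5 lower. The kainate receptor gene Grik2 at 1128 against 746 CPM and the AMPA receptor gene Gria4 at 883 against 1088 CPM. Of 36 axon guidance genes, 14 were higher, among them Sema5b, Ntng2, Robo1 and Nrp1, and 6 lower, among them the netrin receptor gene Unc5d at 567 against 1098 CPM. Of 23 potassium and HCN channel genes, 5 were higher and 7 lower. The autism-associated chromatin genes had 1 of 32 higher and 7 lower, and the CHD family, immediate early and Notch lists had 0 higher, with Rbpj of the Notch list lower.

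Markers of other cell types were present at levels that differed by list. The summed astrocyte list ran from 462 to 558 CPM against a mean of 674 CPM in other glutamatergic nuclei, most of it Slc1a2, a glutamate transporter gene, at 385 ± 42.8 CPM, while Aqp4 was at 2.42 CPM. The list of oligodendrocyte precursor markers summed to 508 to 968 CPM, with a mean of 704 against 635 CPM in other nuclei. Most of it was Tnr, a matrix glycoprotein gene, which was at 692 ± 159 CPM and higher in all 8 libraries, while the other 3 genes of the list were lower in all 8, Pdgfra at 2.62 CPM. The oligodendrocyte list summed to 118 to 297 CPM against 270 CPM and the microglia list to 109.5 to 140 CPM against 144 CPM. The vascular list ran from 2.25 to 6.85 CPM in WT and 4.90 to 8.94 CPM in Chd8het, with the endothelial gene Cldn5 at 0.188 CPM. The summed CGE interneuron list ran from 91.0 to 192 CPM in WT and from 110 to 374 CPM in Chd8het, and 0 of its 6 genes was at 0 in all libraries. Adarb2 made up most of it. Of the neuron lists, the layer 5 extratelencephalic one summed to a mean of 201.5 against 89.9 CPM in other glutamatergic nuclei. The layer 6b list summed to 39.3 against 12.3 CPM. The general IT list lay lower, at 1103 against 1286 CPM, with 0 of its 5 genes higher and 3 lower in all 8 libraries (Cux1, Slc30a3 and Lmo4). The layer 2/3 IT list was also lower, at 267.5 against 475.5 CPM.

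The gated share of glutamatergic nuclei did not overlap between index types and overlapped between genotypes. It was 3.70%, 6.72%, 3.46% and 6.85% in WT and 4.51%, 6.57%, 3.81% and 7.20% in Chd8het. Every dual-indexed library lay above every single-indexed library, and the genotypes overlapped. The means were 5.18 ± 1.85% in WT and 5.52 ± 1.62% in Chd8het (SD, n = 4 each, exact permutation p 0.629, two-sided, 0.881 after Benjamini-Hochberg adjustment over 7 tests). Within single-indexed libraries Chd8het was higher by 0.583 percentage points, and within dual-indexed libraries by 0.0982. By index type the ranges were 3.46% to 4.51% and 6.57% to 7.20% (exact permutation p 0.0286, the smallest that 4 against 4 allows, adjusted 0.10).

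Depth is one measure that moved with index type, since other glutamatergic nuclei of single-indexed libraries had median depths of 7360 to 8056 UMIs, and those of dual-indexed ones 8790 to 10780. Each nucleus was also thinned to 4000 UMIs, which left out 5192 shallower glutamatergic nuclei (40 of them gated). The gene criteria of the rule were applied again to the thinned counts, which left 26865 glutamatergic and 643 gated nuclei. The single-indexed libraries then had shares of 1.35% to 1.93% and the dual-indexed ones 2.98% to 3.30% (exact permutation p 0.0286, adjusted 0.10). Nuclei too shallow for thinning numbered a mean of 845 glutamatergic nuclei per single-indexed and 454 per dual-indexed library. By genotype the thinned shares were 2.41 ± 0.921% and 2.45 ± 0.813% (exact permutation p 0.971). The median depth of gated nuclei was 11490 ± 972 UMIs for WT and 11630 ± 1380 for Chd8het (exact permutation p 0.857), and it was 221 UMIs higher in Chd8het within single-indexed and 48.5 higher within dual-indexed libraries.

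The percent of nuclei with each gate gene is given by index type as a description, without a test. Galnt14 was found in 80.4% of gated nuclei on average with single and 89.6% with dual indexes, and in 14.4% and 27.0% of other glutamatergic nuclei. Cwh43 went the other way within the gate, with 47.4% and 34.9% of gated nuclei, as did Dnah14 with 30.03% and 20.5%. In other glutamatergic nuclei neither fell, with Cwh43 in 12.3% and 12.6% and Dnah14 in 7.70% and 9.0%. Nuclei with a single gate gene made up 26.0% to 34.7% of gated nuclei with single and 33.7% to 44.7% with dual indexes. The rule chose members on these genes, so these shares too are a description only.

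**Figure D4:**
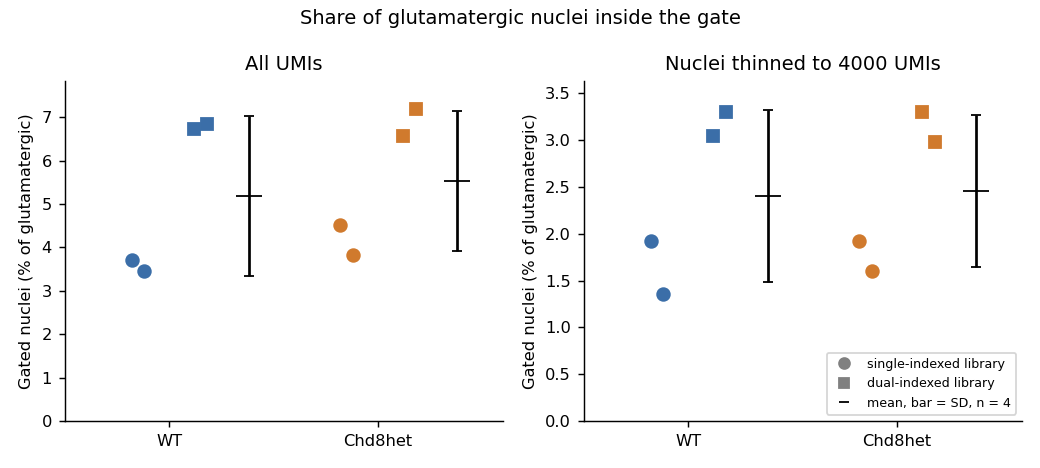
Gated nuclei as percent of glutamatergic nuclei (y axis, linear, from 0) by genotype, with all UMIs (left) and after thinning to 4000 UMIs (right). Points are libraries, circles single-indexed and squares dual-indexed, and bars are mean and SD of 4. The dual-indexed libraries lie above the single-indexed ones in both genotypes.

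Whether heterozygosity changed gene levels within the gated nuclei was tested over the 8 libraries, starting with the targeted gene. Chd8 was at 68.8, 86.7, 78.0 and 86.9 CPM in WT and at 82.3, 91.0, 75.6 and 80.3 CPM in Chd8het. The genotypes overlapped, 2 pairs were lower and 2 higher in Chd8het, and the log2 change was 0.03 (SE 0.11, unadjusted p 0.782, edgeR quasi-likelihood). A count of RNA does not separate the alleles, so these levels do not check the genotype labels.

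With sex as covariate, 0 of 13022 genes (0.0%) passed at adjusted p under 0.05 by the edgeR quasi-likelihood test with Benjamini-Hochberg adjustment. At unadjusted p under 0.05 there were 283 genes, 134 higher and 149 lower in Chd8het, and DESeq2 also called 0. With a term for each pair (WT and Chd8het sharing sex and replicate number) in place of sex, 3 of 13475 genes (0.0223%) passed and all were lower in Chd8het: 5330434G04Rik, Maml3 and 4930415C11Rik. DESeq2 with the same pairs called these 3 as well. With sex and index type as separate terms, which spends fewer terms than pairs, 0 of 13475 passed and the smallest adjusted p was 0.054 (734 at unadjusted p under 0.05, edgeR). The calls rest on few pairs, since without the male 2 pair 0 genes passed, without the male 1 pair 1 (Adarb2, higher), without the female 1 pair 1 (Maml3) and without the female 2 pair 50 (23 higher).

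5330434G04Rik, a long intergenic RNA of unknown function at chrX:105348282-105391776 on the minus strand, stood at 151, 127, 140 and 121 CPM in the WT libraries and at 85.6, 87.3, 101 and 82.6 CPM in the Chd8het libraries. The groups did not overlap, as was so for 257 of 13022 genes (1.97%), and 123 genes (0.945%) had all 4 Chd8het libraries below the 4 WT libraries. The means were 135 ± 13.2 and 89.2 ± 8.37 CPM, a log2 change of -0.59 (SE 0.11, unadjusted p 2.9e-04, adjusted p 1, edgeR) with sex and -0.59 (SE 0.09, adjusted p 0.0425, edgeR) with pairs. Within single-indexed libraries the means were 145 and 93.5 CPM, and within dual-indexed libraries 124 and 84.9 CPM. Its index difference did not pass (log2 -0.18, adjusted p 0.197, edgeR).

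Because this RNA was the 1 of the 3 whose genotype groups did not overlap, its promoter and the miRNAs of its intron are shown. The promoter window is chrX:105391755-105392004, minus strand, GRCm38, from RefSeq, with 3 CG in capitals, fewer than the median promoter.
5330434G04Rik promoter: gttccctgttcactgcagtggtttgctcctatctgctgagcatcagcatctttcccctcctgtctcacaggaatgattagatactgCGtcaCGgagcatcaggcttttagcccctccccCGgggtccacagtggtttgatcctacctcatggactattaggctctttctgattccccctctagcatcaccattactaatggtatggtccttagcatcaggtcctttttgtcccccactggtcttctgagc
The Mir325 hairpin lies at chrX:105379082-105379179 on the same strand, within an intron. Its mature miRNAs follow with bases 2 to 8, the seed, in capitals, and no other of 1738 mature mouse miRNAs in the RefSeq table has either seed.
mmu-miR-325-3p: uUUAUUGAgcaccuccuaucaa
mmu-miR-325-5p: cCUAGUAGgugcucaguaagugu
The libraries counted polyadenylated RNA, and mature miRNAs were not measured.

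The same RNA was lower in Chd8het in all 4 pairs, as were 945 genes (7.26%) over all gated nuclei, in several kinds of gated nuclei. In clusters 1 and 4, where most nuclei had 3 or more gate genes, it was at 102, 109, 121 and 90.9 CPM in WT and 77.1, 57.1, 78.9 and 63.4 CPM in Chd8het, here in CPM without scaling between libraries. In cluster 3 the means were 196 ± 46.6 and 130 ± 17.4 CPM, and in cluster 5 87.2 ± 20.1 and 52.1 ± 12.9 CPM. Leaving out cluster 6, which was concentrated in Chd8het male 2, gave 131 ± 12.4 and 83.6 ± 7.17 CPM.

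Maml3 encodes a Mastermind coactivator, which joins the Notch intracellular domain and Rbpj on DNA. It was at 169, 379, 172 and 455 CPM in WT and at 119, 217, 130 and 260 CPM in Chd8het. Each Chd8het library was below its WT partner, yet the groups overlapped because the dual-indexed libraries were higher in both genotypes. With sex as covariate the log2 change was -0.70 (SE 0.35, unadjusted p 0.0698, adjusted p 1, edgeR), and with pairs -0.64 (SE 0.09, adjusted p 0.0223). The index difference was 1.11 on the log2 scale (SE 0.09, adjusted p 3.3e-05, edgeR), larger than that by genotype. In clusters 1 and 4 it was lower in Chd8het in 4 of 4 pairs. Maml3 spans chr3:51685907-52105076 on the minus strand, and Gm20089 lies antisense within it. Gm20089 was at 7.99 ± 5.09 CPM in WT and 3.95 ± 2.18 CPM in Chd8het and did not pass with pairs (log2 -1.01, adjusted p 0.321, edgeR).

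4930415C11Rik was at 109, 192, 95.8 and 138 CPM in WT and 60.7, 68.1, 43.0 and 99.6 CPM in Chd8het. The groups overlapped by 1 library, Chd8het female 2, and all 4 pairs were lower in Chd8het. The log2 change was -0.96 (SE 0.26, unadjusted p 0.00369, adjusted p 1, edgeR) with sex and -0.98 (SE 0.14, adjusted p 0.0223) with pairs. Its index difference passed as well, at 0.69 on the log2 scale (SE 0.14, adjusted p 0.00771, edgeR). In clusters 1 and 4 it was lower in 3 of 4 pairs. The transcript lies at chr13:59054896-59084093, antisense within Ntrk2 (chr13:58806569-59133970), the gene of the neurotrophin receptor TrkB. Ntrk2 itself was at 827 ± 201 CPM in WT and 810 ± 265 CPM in Chd8het, in CPM without scaling, with 2 pairs lower. Reads of the 2 genes could not be told apart by strand with the information at hand.

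**Figure D5:**
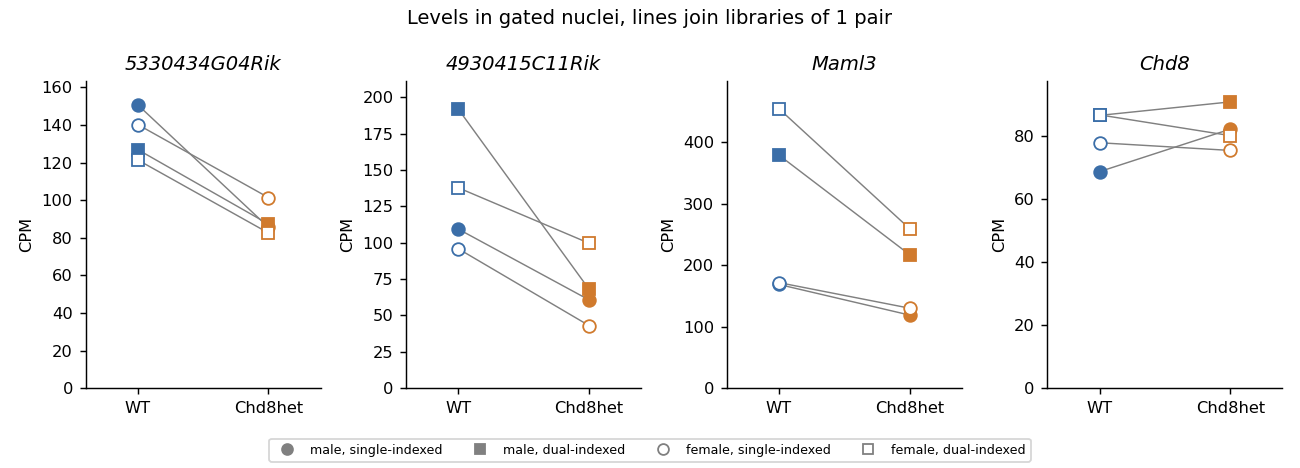
Level in CPM in gated nuclei (y axis, linear, from 0) of the 3 genes called with pairs and of Chd8, in WT and Chd8het. Points are libraries, filled for males and open for females, circles single-indexed and squares dual-indexed, and lines join the pairs. All 4 lines fall for the first 3 genes and 2 of 4 fall for Chd8.

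Other genes with small unadjusted p-values did not pass adjustment in either model. Zfp804b, a zinc finger gene, was at 309 ± 22.2 CPM in WT and 478 ± 133 CPM in Chd8het (log2 0.59, SE 0.15, unadjusted p 0.0021, edgeR) without overlap. Males were at 314 and 296 CPM in WT and 627 and 550 CPM in Chd8het. Females were at 289 and 339 CPM in WT and 385 and 348 CPM in Chd8het. Its sex by genotype term was -0.73 on the log2 scale (SE 0.21, unadjusted p 0.0057, edgeR) and did not pass adjustment. Plxdc2, a transmembrane receptor gene, was at 141 ± 17.9 and 187 ± 12.8 CPM without overlap. Usp11, an X-linked deubiquitinase gene, was at 25.0 ± 3.34 and 16.3 ± 2.36 CPM, also without overlap. Pstpip2 and Gm35769 had lower means in Chd8het, and Myo1h, Gpc3, 1700034P13Rik and Myom1 had higher means but at most 46 UMIs in any library. With pairs, Pde10a, Tnr, Cdh4, Fstl4, Gm42418 and B130024G19Rik followed, with adjusted p of 0.0932 for Pde10a and 0.12 to 0.218 for the others. Shisa6, Ephb1 and Glra3, named in earlier results of these data, had adjusted p of 0.266, 0.651 and 0.574 with pairs (edgeR). The same earlier results named 5330434G04Rik, Maml3, Zfp804b, Usp11, Gm20089 and Chd8, so the calls of 5330434G04Rik and Maml3 were not new to these libraries.

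By gene list, 0 members passed with sex as covariate. With pairs 1 of 9 Notch genes tested passed, which was Maml3, beside 0.0223% of all genes. Over the Notch list the median log2 change was 0.04 with pairs, near 0.00 for all genes. With pairs, 345 of all 13475 genes were higher and 456 lower at unadjusted p under 0.05, against which the list counts are to be read. Among 29 glutamate receptor genes, 0 were higher and 6 lower at unadjusted p under 0.05, among them Grin2b (log2 -0.25, SE 0.05), Shisa6 (-0.52, SE 0.12) and Neto1 (-0.24, SE 0.08). Their median was -0.03. With sex as covariate, 0 of 28 were higher and 2 lower at that level, beside 134 and 149 of 13022 genes. Among 15 cadherins, 3 were lower at that level with pairs, Cdh4, Cdh18 and Cdh12, with Cdh12 at 726 ± 63.5 CPM in WT and 593 ± 45.1 CPM in Chd8het. With sex as covariate 1 of 15 was lower. Of 9 CHD family genes 0 had an unadjusted p under 0.05 in either model.

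All 4 CGE interneuron genes tested with pairs were higher in Chd8het at unadjusted p under 0.05, beside 345 of 13475 genes, and none passed adjustment. With sex as covariate it was 1 of 3, Adarb2, beside 134 of 13022 genes. Adarb2 was at 89.1, 58.9, 124 and 143 CPM in WT and 55.0, 100, 305 and 281 CPM in Chd8het. The 2 highest values were both from Chd8het females. Leaving out the 62 nuclei of cluster 6, which had raised interneuron markers, gave 60.5 ± 4.91 CPM in WT and 57.5 ± 15.5 CPM in Chd8het, in CPM without scaling, with 2 pairs lower. In Chd8het female 1 and female 2, with 6 and 5 of these nuclei, Adarb2 fell from 310 to 53.7 and from 282 to 62.9 CPM. In Chd8het male 2, with 31 of them, it fell from 102 to 75.1 CPM. The excess in Chd8het females thus came from few nuclei. Cluster 6 was grouped on Adarb2 among other genes, so its removal lowers this gene by construction.

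The genotype differences in gated nuclei were set against those in other glutamatergic nuclei of the same libraries. The test of the difference called 0 of 19982 genes (0.0%), with 843 at unadjusted p under 0.05 (edgeR quasi-likelihood). In the other nuclei, 0 of 20538 genes (0.0%) passed with pairs. 5330434G04Rik was at 127 ± 10.8 CPM in WT and 82.5 ± 8.04 CPM in Chd8het there, a log2 change of -0.62 (adjusted p 0.0705), and its difference between the 2 kinds of nuclei was 0.03 (SE 0.08, unadjusted p 0.693, edgeR). For Maml3 the change in other nuclei was -0.67 and the difference 0.05 (SE 0.08, unadjusted p 0.547). For 4930415C11Rik they were -1.17 and 0.20 (SE 0.10, unadjusted p 0.0554). None of the 3 was thus shown to be particular to the gated nuclei. Without Chd8het female 2 the test of the difference called 4 genes and without WT female 1 it called 2, all lower.

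Index type, which coincides with replicate number, had more genes called than genotype or sex. Of 13475 genes, 1689 (12.5%) passed, 912 (6.77%) higher and 777 (5.77%) lower in dual-indexed libraries. The count was 807 without WT male 1, 862 without Chd8het male 1, 876 without WT male 2, 1052 without Chd8het male 2 and 1077 without WT female 1. Pde10a, a phosphodiesterase gene, was at 592 to 871 CPM with single and 1177 to 1931 CPM with dual indexes (log2 1.16, SE 0.07, adjusted p 3.2e-06, edgeR). AY036118, Maml3, Them4, C630031E19Rik and Shisa9 followed Pde10a on the high side. Rad51ap2 was lowest by p, at 77.6 to 89.1 CPM against 32.8 to 41.5 CPM (log2 -1.22, SE 0.11), with Gm27032, Ndfip1, Lynx1, Atp6v0b and Trim35.

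Among the lists, 12 of 29 glutamate receptor genes were higher and 2 lower by index type, beside 6.77% and 5.77% of all genes. They included Shisa9, an AMPA receptor auxiliary subunit, at 209 ± 19.2 and 398 ± 49.7 CPM, and Gria2, lower at 2354 ± 127 and 1832 ± 186 CPM. Of 46 axon guidance genes, 11 were higher and 3 lower, and of 16 immediate early genes 5 were higher (Arc, Npas4, Egr1, Egr3 and Fos) and 0 lower. Npas4, an activity-induced transcription factor, was at 2.703 to 5.25 CPM and 7.21 to 17.3 CPM. Cdh9 was lower in dual-indexed libraries at 239 ± 66.9 CPM against 294 ± 73.9 CPM (log2 -0.32, SE 0.10, adjusted p 0.0441, edgeR). In Chd8het females, by contrast, Cdh9 was at 286 CPM with single and 305 CPM with dual indexes. Rorb was lower in dual-indexed libraries too, at 60.1 ± 15.6 against 102 ± 24.8 CPM. Tshz2, a leading gene of clusters 8 to 10, was higher at 560 ± 198 against 183 ± 101 CPM. The part of cluster makeup in these differences was not tested.

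By sex, 7 of 13022 genes (0.0538%) passed. Xist, Tsix and the X-linked demethylase gene Kdm6a were higher in females, and Uty, Kdm5d, Eif2s3y and Ddx3y of the Y chromosome higher in males. Xist was at 606 to 978 CPM in females and at most 0.450 CPM in males, and Uty at 103 to 127 CPM in males and at most 0.541 CPM in females. Kdm6a, at 84.5 to 95.8 CPM in females and 53.5 to 58.9 CPM in males, did not pass when any 1 of the 8 libraries was left out. The test of sex by genotype called 0 of 13475 genes (0.0%), with 145 at unadjusted p under 0.05 (edgeR).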

How the data were processed

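The deposited files held whole-number UMI counts per barcode for 32285 genes in 8 libraries, already limited by the authors to 97772 barcodes. Per the submitters' processing notes, STAR 2.7.9a, Cell Ranger, STARsolo and mm10 were used, in roles not given there. Strand and intron use are not given in the sources used here. Libraries held 69.5 to 98.1 M UMIs.

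Members and lists were chosen with earlier results of these data known. UMI counts of gated nuclei were summed per library and tested with edgeR 4.0.16 (filter minimum count 10, trimmed mean of M values, quasi-likelihood, sex and genotype, Benjamini-Hochberg at 0.05), with DESeq2 1.42.0 as an alternative, in R 4.3.3. The 14 genes of the rule stayed in the fit and got no test. Each library is 1 mouse, and log2 changes are Chd8het minus WT. Other glutamatergic nuclei met the Slc17a7, Gad, glial and quality criteria and were not gated. Doublets were predicted with Scrublet in scanpy 1.11.5 and kept in the main results. Clusters used 30 principal components, 20 neighbours and Leiden resolution 0.5, with genes centred within each library.

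For the fits with pairs, each WT library was matched to the Chd8het library of its sex and replicate number. Residuals of the 4 matches correlated (r 0.264, 0.317, 0.118 and 0.171). This cannot show that they were litter pairs, since matched libraries also shared index type. The other matching within a sex joins different index types, and there r was -0.548 to -0.397. Libraries of the same index type that differed in both sex and genotype had r of 0.404 to 0.485. Fitting sex and genotype by itself lowers r for the matches and raises it for these libraries, so the 2 ranges cannot be ranked. With genotype alone fitted, r was 0.264 to 0.508 for the matches, which also share sex, and 0.0887 to 0.22 for these libraries. Residuals from sex and genotype also correlated between the sexes within an index type (0.12 to 0.485), so litter and index type cannot be told apart.

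Named by genotype were the 10 genes with the smallest p in each of the 2 models and those reported earlier, by sex and index the first 6 in each direction, by level the 24 genes with the highest lowest-library ratio and the 10 with the lowest highest-library ratio, and in lists the called members and at most 4 more. Some list members were named after their values were seen. On simulated counts for the genotype comparison, 182 of 200 changed genes among 12780 were recovered (82% at 2-fold, 100% at 4-fold, 9 false). Changed genes were drawn only from those above a minimum mean count, and no shared effect of pair or index type was simulated. The recovery is thus no measure of power for smaller changes in these data. Coordinates are from GENCODE on GRCm38 (32235 of 32285 identifiers matched), and sequences from RefSeq.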

Additional observations from a re-analysis of the deposited data

Results flagged for a closer look

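Of 256 groups of 4 libraries examined, 13 had 1 library standing far from the other 3, no more than the 5% or so that chance gives, so the values below are listed without a pattern being read from them. By the gate, Dnah14 was at 78.7 CPM in WT male 1 against 35.5 to 38.4 CPM in the other WT libraries. Among layer genes, Rorb was at 128 CPM in WT female 1 (others 62.6 to 68.4), Ntsr1 at 12.6 CPM in Chd8het male 2 (others 2.40 to 3.85), Cplx3 at 5.40 CPM in WT male 1 (others 2.34 to 2.83) and Nr4a2 at 25.4 CPM in WT male 2 (others 8.65 to 10.8). Synpr was at 49.1 CPM in WT male 2 (others 40.4 to 41.4) and at 77.5 CPM in Chd8het female 2 (others 45.4 to 46.3). Among genes named by genotype, Myom1 was at 6.01 CPM in Chd8het male 1 (others 4.84 to 5.04) and Glra3 at 15.7 CPM in WT male 1 (others 8.64 to 9.37).

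Of the markers of other cells, Mobp was at 35.1 CPM in Chd8het male 1 (others 11.5 to 14.4), Dcn at 5.73 CPM in Chd8het male 2 (others 0.421 to 0.901) and Chrna6 at 0.36 CPM in WT female 2, with the other WT libraries at 0. Cluster 6 made up 8.88% of gated nuclei in Chd8het male 2 and 1.47% to 2.68% in the other Chd8het libraries.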

How the results depend on the processing

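The number of genes called by genotype rose from 0 to 3 with the replicate block, in edgeR, in DESeq2 and with predicted doublets left out, and to 10 without a filter on low counts. With the block and 1 pair left out it was 0 to 50. The difference between gated and other nuclei gave 18 genes without a filter and 0 to 4 with 1 library left out. By sex 148 genes passed without a filter. By index type 807 to 2055 passed with 1 library left out, and 2303 without a filter. The genotype difference in share was -0.0405 percentage points with at least 6 gate gene UMIs and -0.235 to 0.91 with 1 library left out. It turned negative without WT male 1 (-0.152), WT female 1 (-0.235), Chd8het male 2 (-0.00844) or Chd8het female 2 (-0.218). Median UMIs differed by -492 to 588 with 1 library left out, and were lower in Chd8het without WT male 1 (-171) or Chd8het female 2 (-492). The log2 change of Chd8 was -0.05 to 0.09 with 1 library left out, -0.02 after thinning, -0.02 without Chd8het male 2, -0.05 without WT male 1 and -0.03 with the block without the male 1 pair. The cause of these shifts was not tested. Over 23 named genes, 514 of 544 values kept their direction and side of the threshold, 26 passed it and 4 reversed. Over the settings run the log2 change was -0.67 to -0.41 for 5330434G04Rik, -0.92 to -0.37 for Maml3 and -1.31 to -0.72 for 4930415C11Rik.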
